A study of Mus musculus with 8 samples.

Results

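The 10 immediate-early genes, Fos, Fosb, Jun, Junb, Jund, Egr1, Atf3, Ier2, Dusp1 and Zfp36, were followed in sorted mouse kidney cells with and without endomucin. They were chosen by name, as genes known to be switched on when tissue is taken apart, and because a list holding them was lower in knockout endothelium in an earlier look at these data. Their values in that comparison are therefore a description with no test. All 10 of 10 chosen genes were on lines of the count table that held all 8 counts, among 17326 such lines of 22533 in the table, and all 10 passed the filter on low counts that left 16477 genes.

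The libraries formed 4 groups of 2. They were endothelium and podocytes sorted from kidneys of wild-type (EMCN+/+) mice, and the same cell types from mice carrying no intact copy of Emcn (EMCN-/-). Emcn encodes endomucin, a sialomucin of the endothelial surface, and podocytes are the epithelial cells on the other side of the glomerular basement membrane. The labels gave no treatment, time, age, sex or strain, no sorting markers and no way of dissociating the tissue, and they did not describe how the Emcn allele was made, whether animals were pooled or whether libraries with the same replicate number (2 or 3) shared an animal. Since nothing stated that libraries came from separate animals, p-values measure only the spread between these libraries.

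Immediate-early genes are transcribed within minutes of a stimulus without new protein synthesis, from promoters that hold serum response and cyclic AMP response elements already occupied by their factors. Fos and Jun proteins pair through leucine zippers to form AP-1, a transcription factor that binds TGANTCA, and Egr1 is a zinc finger factor that binds GC-rich sites. Dusp1 and Zfp36 act as brakes on the same response, Dusp1 by removing phosphate from MAP kinases and Zfp36 by speeding the decay of short-lived mRNAs. In sorted kidney cells these transcripts are known to be sensitive to warm enzymatic digestion before the cells are sorted.

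Library totals over the lines used ran from 10478956 to 17386042 counts. Emcn, which checks the genotype labels, stood at 1972 and 1828 CPM (a gene's count relative to the library total, after edgeR's TMM scaling) in the wild-type endothelium libraries and at 173 and 179 CPM in the knockout ones. In podocytes it stood at 74.1 and 35.9 CPM in wild type and at 5.59 and 4.94 CPM in knockout (log2 difference -3.38, edgeR adjusted p = 0.0321). That call was lost in 5 of 8 fits without 1 library, namely replicate 2 or 3 of wild-type endothelium, replicate 2 of wild-type podocytes and replicate 2 or 3 of knockout podocytes (edgeR adjusted p = 0.0638, 0.0697, 0.139, 0.558 and 0.124), while the log2 difference stayed between -3.81 and -2.74 over all 8. All 9 tested endothelial markers were higher in endothelium and all 6 tested podocyte markers were higher in podocytes (edgeR adjusted p under 0.05). The summed podocyte markers still stood at 1233 to 2250 CPM in the endothelium libraries, against 8063 to 17760 CPM in the podocyte libraries, and none of the markers was at 0 counts in any group. Tubule markers summed to between 2472 CPM in replicate 2 of knockout endothelium and 12040 CPM in replicate 3 of wild-type endothelium. That last library stood apart, with 26.2% of its counts from 15 mitochondrial genes against 10.1% to 22.2% in the other 7, and results in endothelium are also given without it.

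Promoter sequences show how the members differ at the level of DNA. Of the 10 genes, 8 had an entry in a RefSeq promoter table (build GRCm38.p6, the assembly that mm10 in the submitters' processing notes stands for), and Ier2 and Egr1 were not matched. The 250 bases before each start were searched on both strands for the cyclic AMP response core TGACGT, which lies inside the full palindrome TGACGTCA, for the AP-1 motif TGANTCA, the Egr motif GCGNGGGCG, TATAAA and the CArG box of serum response factor. Upstream sequences of Fos, Fosb and Dusp1 are shown because these 3 genes differed in how they were spread over the cell types and because each holds a match, and bases inside an annotated exon of the gene were left out. Capitals mark the matches. Fos lies at chr12:85473640-85473889 on the plus strand, Fosb at chr7:19310052-19310295 on the minus strand and Dusp1 at chr17:26508520-26508722 on the minus strand, each written 5′ to 3′ on the strand of the gene.
Fos: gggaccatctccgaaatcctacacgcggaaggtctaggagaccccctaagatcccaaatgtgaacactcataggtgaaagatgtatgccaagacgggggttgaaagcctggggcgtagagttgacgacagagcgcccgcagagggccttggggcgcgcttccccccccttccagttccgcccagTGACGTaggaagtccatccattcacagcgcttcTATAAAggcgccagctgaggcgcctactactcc
Fosb: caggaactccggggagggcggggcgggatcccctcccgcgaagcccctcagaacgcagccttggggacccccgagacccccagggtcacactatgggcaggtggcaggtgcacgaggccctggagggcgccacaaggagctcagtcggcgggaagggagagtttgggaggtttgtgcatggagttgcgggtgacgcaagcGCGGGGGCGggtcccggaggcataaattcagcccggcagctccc
Dusp1: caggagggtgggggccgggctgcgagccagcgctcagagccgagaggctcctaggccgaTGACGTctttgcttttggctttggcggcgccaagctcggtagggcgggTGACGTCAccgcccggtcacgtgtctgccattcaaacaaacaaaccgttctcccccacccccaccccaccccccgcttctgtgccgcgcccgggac

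The Fos stretch held TGACGT from position -66 to -61 before the start and TATAAA from -33 to -28. Dusp1 held TGACGT from -191 to -186 and the full TGACGTCA from -143 to -136. Fosb held GCGGGGGCG, a match to the Egr motif, from -50 to -42. Of the members not shown, Atf3 held TGACGT on the opposite strand from -8 to -3, of which all but the first base lie in an exon that GENCODE M21 annotates for Atf3, and Zfp36 held a CArG box, CCATAAAAGG, from -58 to -49 and GCGGGGGCG from -105 to -97. The Zfp36 window lies inside an exon that GENCODE M21 annotates for that gene. Jun, Junb and Jund held none of the 6 motifs in this window, which for Jund lies before a RefSeq start that is upstream of the GENCODE one. TGACGT was thus found in 3 of 8 members, against 6.47% of 32851 promoters of the same length, and the CArG box in 1 of 8, against 1.47%. TGACGTCA was in 1.55% of all promoters, GCGNGGGCG in 4.70%, TATAAA in 12.37% and TGANTCA, found in 0 of 8 members, in 6.75%. A match describes letters, not a bound site, and a window without one says nothing about the factor.

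The members differed widely in level per transcript length, the scale on which genes can be compared with each other. In wild-type endothelium Jun stood at 1142 ± 96.2 CPM per kb of its principal GENCODE M21 transcript (SD, n = 2) and Dusp1 at 1060 ± 61.7 CPM per kb, which did not differ beyond their spread. Fos followed at 893 ± 111 CPM per kb (SD, n = 2) and Junb at 612 ± 147 CPM per kb. Egr1 and Atf3, at 364 and 349 ± 101 CPM per kb, did not differ beyond the spread of Atf3. Ier2 (226 CPM per kb) and Zfp36 (135 CPM per kb) were lower, and Jund and Fosb came last at 24.1 and 12.8 CPM per kb.

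In wild-type podocytes the order of levels per length was led by Fos, at 1486 ± 87.0 CPM per kb (SD, n = 2), above Jun at 1171 ± 153 CPM per kb. Dusp1, Atf3, Egr1 and Junb formed a group of neighbours at 708, 687, 645 and 598 CPM per kb, each within the SD of Egr1, 116 CPM per kb. Jund and Fosb were again last, at 126 and 45.2 CPM per kb. Transcripts annotated elsewhere overlap several members. Jund (chromosome 8, 70698949 to 70700616), a gene of 1 exon, is overlapped by the antisense transcript Gm11175, Jun (chromosome 4, 95049034 to 95052222) by Junos, Zfp36 (chromosome 7, 28376784 to 28380253) by Gm44710 and Junb (chromosome 8, 84974484 to 84978718) by Prdx2 on the opposite strand. Dusp1 (chromosome 17, 26505590 to 26562128) is overlapped by 4 genes, among them the protein-coding Ergic1 on the opposite strand, and Atf3 (chromosome 1, 191170296 to 191218039) by Gm24748. Whether counting used strand is not given in the sources used here. Reads from stretches that these 6 genes share with partners on the opposite strand therefore cannot be told apart. The overlaps are of whole gene spans, and whether exons overlap was not examined.

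**Figure D1:**
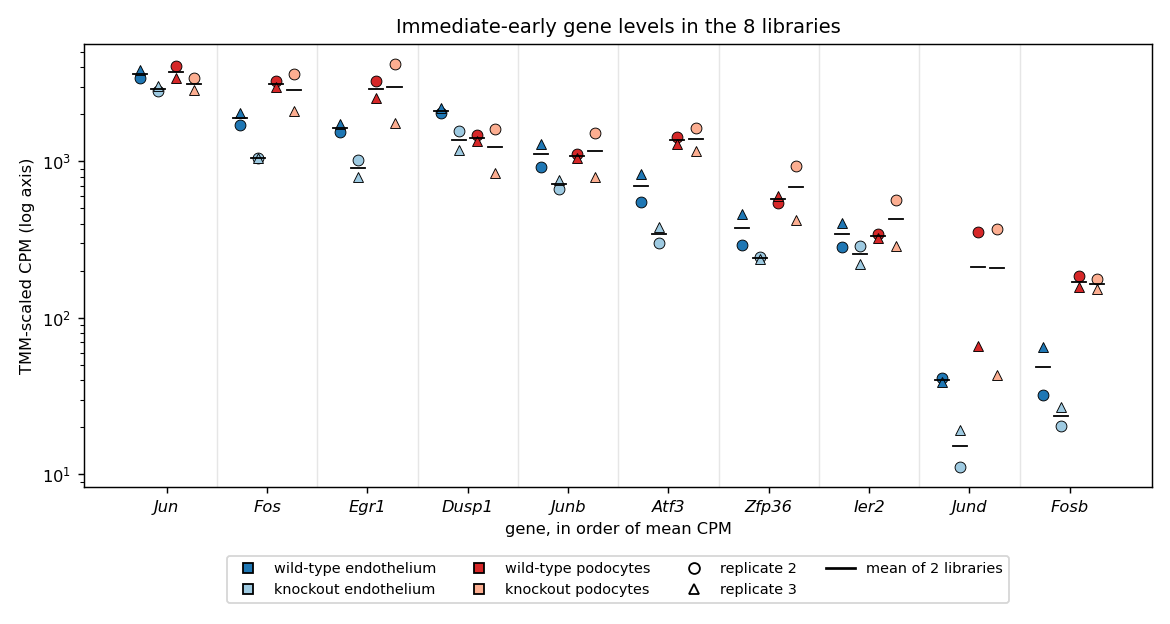
TMM-scaled CPM (log axis) of each of the 10 genes in each of the 8 libraries, with circles for replicate 2, triangles for replicate 3, colours for the 4 groups and a bar at the mean of 2 libraries. Fosb stands between 153 and 184 CPM in the 4 podocyte libraries and between 20.4 and 65.1 CPM in the 4 endothelium libraries, and Jund spreads from 43.4 to 372 CPM among the podocyte libraries.

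The first comparison asked how the sorted cell types differ. Endothelium was set against podocytes with both genotypes averaged. The contrast is not the genotype difference by which the genes were chosen. Its endothelium average does include the knockout libraries in which they were low, so it is not free of that choice. Fos, Fosb, Jund, Egr1, Atf3 and Zfp36 were lower in endothelium, and Jun, Junb, Ier2 and Dusp1 did not pass the test. The 6 that passed were 2.06-fold (Zfp36) to 8.46-fold (Jund) higher in podocytes, and Dusp1 had the only positive estimate for endothelium. These folds average the genotypes, and they ran from 1.51 (Zfp36) to 5.23 (Jund) in wild type alone and from 2.71 (Fos) to 13.7 (Jund) in knockout alone. In wild type alone the log2 differences of all 10 members lay above the averaged ones, and they are given without a test. Fos stood at -0.735 and Egr1 at -0.826 there, and Junb and Ier2 at 0.035 and 0.042. So 6 of 10 members were called lower in endothelium and 0 higher, where 11.1% of the 16477 genes tested were called lower and 7.19% higher (18.3% in either direction). For 5 of 10 members all endothelium libraries lay below all podocyte libraries and for 0 above, where 12.3% and 9.59% of all genes tested did so. All 10 members lay among the 1919 genes whose mean reached 100 CPM, and of these 482 were called lower and 209 higher. The members' median log2 difference was -1.07, against 0.00 over all genes tested and -0.22 over those of at least 100 CPM.

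Of the Fos family, Fosb encodes a partner of Jun that is found as full-length and truncated forms. Fosb stood at 31.99 and 65.1 CPM in wild-type endothelium, 20.4 and 27.0 CPM in knockout endothelium, 184 and 157 CPM in wild-type podocytes and 176 and 153 CPM in knockout podocytes (replicates 2 and 3 in each group). The cell types did not overlap, and the lowest podocyte library was above the highest endothelium library by more than the spread within either podocyte group. The log2 difference was -2.31 (SE 0.23, edgeR adjusted p = 5.66e-05). Fos itself, the founding member, stood at 1717 and 2048 CPM in wild-type endothelium, 1057 and 1052 CPM in knockout endothelium, 3263 and 3004 CPM in wild-type podocytes and 3626 and 2087 CPM in knockout podocytes. Its podocyte libraries were also all above its endothelium libraries, though replicate 3 of knockout podocytes came within a small margin of the highest endothelium library. The log2 difference of Fos was -1.09 (SE 0.22, edgeR adjusted p = 0.00640).

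Of the 3 Jun family members, Jund passed the test and Jun and Junb did not. Jun, the most abundant member by CPM, stood at 3424 and 3858 CPM in wild-type endothelium, 2812 and 3022 CPM in knockout endothelium, 4078 and 3388 CPM in wild-type podocytes and 3393 and 2858 CPM in knockout podocytes. The cell types overlapped, and the log2 difference of -0.07 had a 95% interval from -0.51 to 0.38 (edgeR adjusted p = 0.870). Its sign changed with the scaling, at 0.10 when libraries were scaled by their totals and 0.18 when TMM used only genes of at least 100 CPM. Junb, a Jun relative that is strongly induced by growth factors, stood at 919 and 1296 CPM in wild-type endothelium, 668 and 755 CPM in knockout endothelium, 1107 and 1055 CPM in wild-type podocytes and 1519 and 797 CPM in knockout podocytes. These ranges overlapped as well, with a log2 difference of -0.33 (95% interval -0.85 to 0.18, edgeR adjusted p = 0.386).

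Jund, a Jun family member that is usually present in resting cells, had the widest gap of the 10 between the libraries of each podocyte group. It stood at 354 CPM in replicate 2 and 66.4 CPM in replicate 3 of wild-type podocytes, and at 372 and 43.4 CPM in replicates 2 and 3 of knockout podocytes. In endothelium Jund stood at 41.5 and 38.9 CPM in wild type and at 11.1 and 19.3 CPM in knockout. Replicate 2 of each podocyte group was high and replicate 3 low, and the lowest podocyte library was barely above the highest endothelium library. The difference between the libraries of 1 podocyte group, -2.41 and -3.09 log2 units (replicate 3 minus replicate 2), was about as large as the cell type difference of -3.08 (SE 0.65, edgeR adjusted p = 0.00718). The cell type difference of Jund was -1.96 without replicate 2 of knockout podocytes and -2.25 without replicate 2 of wild-type podocytes, and it was -3.50 without replicate 3 of knockout podocytes. The other 9 members differed between the libraries of wild-type podocytes by -0.37 to 0.17 log2 units. In knockout podocytes all 9 were lower in replicate 3 as well, by -0.20 for Fosb to -1.25 for Egr1 and -1.16 for Zfp36.

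Atf3, a stress-induced bZIP factor that can repress transcription and pairs with Jun proteins, stood at 550 and 834 CPM in wild-type endothelium, 303 and 383 CPM in knockout endothelium, 1431 and 1296 CPM in wild-type podocytes and 1631 and 1159 CPM in knockout podocytes. All podocyte libraries were above all endothelium libraries, with a log2 difference of -1.502 (SE 0.21, edgeR adjusted p = 0.000594). Egr1 stood at 1530 and 1733 CPM in wild-type endothelium, 1017 and 796 CPM in knockout endothelium, 3260 and 2524 CPM in wild-type podocytes and 4180 and 1759 CPM in knockout podocytes. Egr1 had both its highest and its lowest podocyte value in the knockout group, and the lowest still exceeded the highest endothelium value. Its log2 difference was -1.27 (SE 0.28, edgeR adjusted p = 0.00901).

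Ier2 encodes a short nuclear protein of the immediate-early response. It stood at 285 and 402 CPM in wild-type endothelium, 286 and 222 CPM in knockout endothelium, 345 and 322 CPM in wild-type podocytes and 568 and 287 CPM in knockout podocytes. The cell types overlapped (log2 difference -0.35, 95% interval -0.87 to 0.16, edgeR adjusted p = 0.354).

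Of the brakes on the response, Zfp36 passed the test between cell types and Dusp1 did not. Dusp1 stood at 2023 and 2196 CPM in wild-type endothelium, 1563 and 1189 CPM in knockout endothelium, 1476 and 1341 CPM in wild-type podocytes and 1609 and 847 CPM in knockout podocytes. Wild-type endothelium was the highest group, but the cell types overlapped once both genotypes were included (log2 difference 0.37, 95% interval -0.14 to 0.89, edgeR adjusted p = 0.328). Zfp36 stood at 293 and 462 CPM in wild-type endothelium, 246 and 238 CPM in knockout endothelium, 538 and 604 CPM in wild-type podocytes and 940 and 422 CPM in knockout podocytes. Replicate 3 of knockout podocytes fell inside the endothelium range, and the log2 difference was -1.05 (SE 0.26, edgeR adjusted p = 0.0168). That call was lost without replicate 2 of wild-type endothelium (log2 difference -0.90, edgeR adjusted p = 0.0647), replicate 2 of wild-type podocytes (-1.08, edgeR adjusted p = 0.0517) or replicate 3 of wild-type podocytes (-1.01, edgeR adjusted p = 0.0537). The calls of the other 5 genes held in all 8 fits without 1 library.

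Markers of other cells moved with cell type too. Of 7 tested mural and mesangial markers 4 were higher in podocytes, where they summed to 452 to 1179 CPM against 252 to 573 CPM in endothelium, and 2 of 7 tested tubule markers were higher in podocytes. The 4 tested immune markers summed to 80.5 to 119 CPM in podocytes and 24.1 to 53.8 CPM in endothelium, with 1 of them called higher in each cell type. Their part in the cell type difference was not tested. In sorted bulk samples, fewer cells with a transcript and less of it per cell cannot be told apart.

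**Figure D2:**
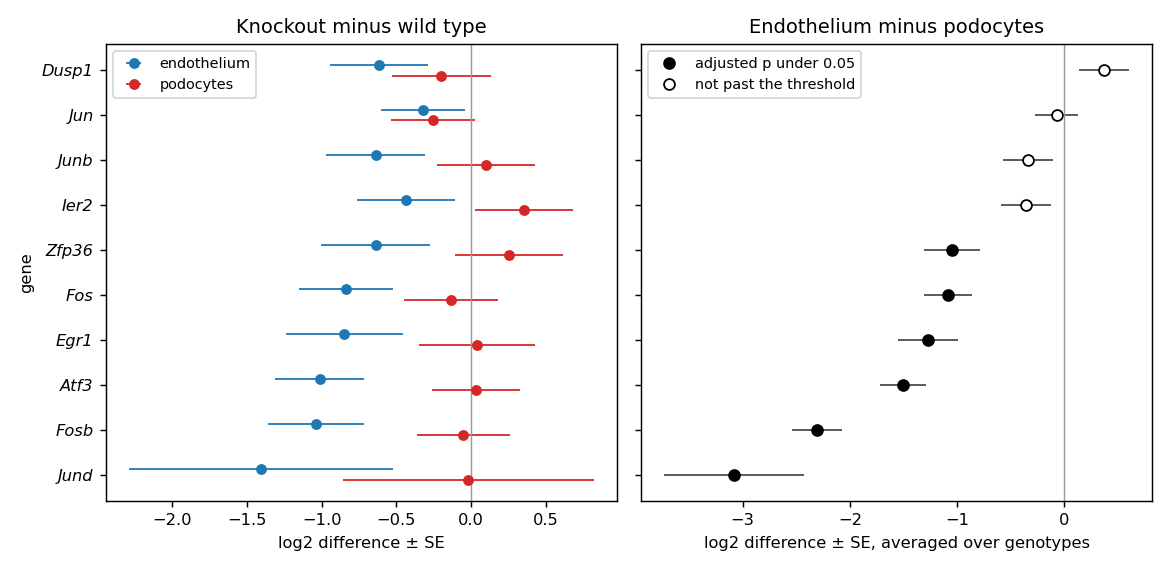
Log2 differences with standard errors for each of the 10 genes, on the left knockout minus wild type in endothelium (blue) and podocytes (red), on the right endothelium minus podocytes averaged over genotypes, with filled points for an edgeR adjusted p under 0.05. All 10 blue points lie below 0, in the comparison by which the genes were chosen, the red points lie between -0.26 and 0.36, and 6 points on the right are filled.

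The second comparison asked whether the loss of Emcn went with a change of these genes in podocytes, the cell type whose genotype difference had no part in choosing them. None of the 10 members passed the test there. By edgeR 0 of 10 had an adjusted p under 0.05 and 0 of 10 an unadjusted p under 0.05, and DESeq2 gave 0 and 0, where edgeR called 0.00607% of all genes tested (Emcn alone). Over all 16477 genes, 730 had an unadjusted p under 0.05 by edgeR and 793 by DESeq2, a share at which few or none of 10 genes would be counted, so the count of 0 does not set the members apart. Estimates were above 0 for 5 members and below 0 for 5, with a median log2 difference of 0.01, against 0.02 over all genes tested. The estimates ran from -0.26 for Jun to 0.36 for Ier2, with edgeR adjusted p-values from 0.978 to 0.999.

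The libraries leave room for sizeable differences in podocytes. For Fos the log2 difference was -0.13 with a 95% interval from -0.83 to 0.56, for Egr1 it was 0.04 with an interval from -0.82 to 0.90, and for Fosb it was -0.05 with an interval from -0.74 to 0.64. Jund had the widest interval, from -1.88 to 1.85. The knockout podocyte libraries lay both below the wild-type ones for 0 of 10 genes and both above for 0 of 10, where 16.0% and 15.1% of all genes tested did so. In 8 of the 10, all but Fosb and Jun, the knockout libraries lay on either side of the wild-type pair, with replicate 2 above and replicate 3 below. The members' median log2 difference moved to -0.44 without replicate 2 of knockout podocytes and to 0.37 without replicate 3, so its sign rested on which of these libraries was kept. Replicate 2 of that group also had more mural and mesangial marker RNA (1179 against 452 CPM) and fewer mitochondrial counts (12.9% against 22.2%) than replicate 3, and the part of these in the split was not tested. The podocyte markers summed to 17760 and 11420 CPM in wild-type and 8063 and 10640 CPM in knockout podocytes, lowest in that same replicate 2, and their part in the genotype comparison was not tested.

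In endothelium, where the genes were chosen as lower in knockout, all 10 estimates lay below 0, from -0.32 (SE 0.28) for Jun to -1.41 (SE 0.88) for Jund, with a median of -0.74. For 9 of 10 members the higher knockout library was under the lower wild-type one, and for 0 of 10 the groups were apart the other way, where 19.7% and 24.8% of all genes tested were. Among the 1919 genes whose mean reached 100 CPM, 858 were apart with knockout lower and 47 with knockout higher. Ier2 was the exception, with 286 CPM in knockout replicate 2 against 285 CPM in wild-type replicate 2. Next to Jund, the lowest estimates were those of Fosb (-1.04, SE 0.32), Atf3 (-1.01, SE 0.30), Egr1 (-0.85, SE 0.39) and Fos (-0.84, SE 0.32). Those of Zfp36 and Junb were both -0.64 (SE 0.36 and 0.33), and Dusp1 had -0.62 (SE 0.33). No member is given a test here, and edgeR called 0.00607% of all genes in this comparison, again Emcn alone.

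Most abundant genes had estimates below 0 in knockout endothelium. Among the 5 members of at least 1000 CPM (Fos, Jun, Junb, Egr1 and Dusp1) the estimates ran from -0.85 to -0.32, and the 76 genes at that level had a median of -0.45, with 89.5% below 0. Among genes of 100 to 1000 CPM, which include Fosb, Jund, Atf3, Ier2 and Zfp36, the median of 1843 genes was -0.25 and 89.1% lay below 0. Genes under 1 CPM had a median of 0.82 and those of 1 to 10 CPM 0.47, so the level itself went with the direction. In podocytes the medians ran the same way, from 0.41 under 1 CPM to -0.32 from 1000 CPM upwards. When TMM used only genes of at least 100 CPM, a choice made after seeing the data, the median of all genes in endothelium moved to 0.31 and that of the members to -0.42, with Jun at -0.01, Ier2 at -0.10 and Dusp1 at -0.29.

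**Figure D3:**
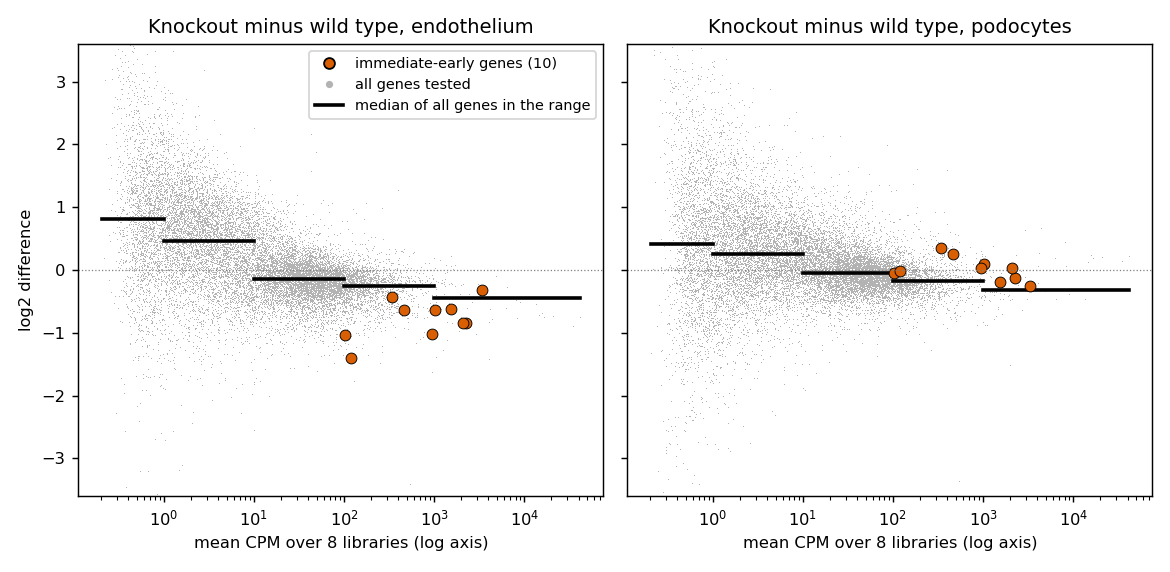
Log2 difference of knockout minus wild type against mean CPM over 8 libraries (log axis) for all 16477 genes tested (grey; genes beyond the vertical axis are not drawn), in endothelium on the left and podocytes on the right, with the 10 genes in orange and black bars at the median of all genes in 5 ranges of level. The bars step down from 0.82 to -0.45 in endothelium, where 9 of the 10 orange points lie below the bar of their range and Jun above it.

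Within endothelium the size of the difference moved with the wild-type libraries kept. Without replicate 3 of wild-type endothelium, the library with the most mitochondrial and tubule RNA, the members' median moved from -0.74 to -0.50, with Fosb at -0.44, Zfp36 at -0.28 and Ier2 at -0.17. Without replicate 2 of that group it moved to -0.94. The sign stayed below 0 for all 10 members in each of the 8 fits without 1 library. With libraries scaled by their totals the median was -0.39 and Jun stood at 0.01. Tubule markers summed to 4360 and 12040 CPM in wild-type and 2472 and 4295 CPM in knockout endothelium, and the part of tubule and mitochondrial RNA in the difference was not tested.

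The genotype difference in endothelium minus that in podocytes holds the choosing contrast and is also given without a test. It lay below 0 for all 10 members, from -0.06 (SE 0.40) for Jun to -1.39 (SE 1.21) for Jund, with -1.05 (SE 0.42) for Atf3 and -0.98 (SE 0.45) for Fosb. For Dusp1 the cell type difference was 0.58 in wild type and 0.16 in knockout. Fos was -0.73 log2 units in endothelium relative to podocytes in wild type and -1.44 in knockout, and these values share their endothelium libraries with the genotype comparison.

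Other genes of the response were taken from lists chosen with earlier results of these data known. The related transcription factors had 12 of 24 genes on complete lines, and the Nr4a genes, Cebpb and Cebpd were among the 11 on short lines that were not analysed here. Between the cell types 6 of the 12 were lower in endothelium and 1 was higher, against 11.1% and 7.19% of all genes tested. Egr2, a close relative of Egr1, stood at 42.4 ± 5.99 CPM in wild-type endothelium and 70.6 ± 5.58 CPM in wild-type podocytes (SD, n = 2), with a log2 difference of -1.30 (SE 0.23, edgeR adjusted p = 0.00239). The Fos relative Fosl1 differed by -2.07 (edgeR adjusted p = 0.00296), Egr4 by -2.71 (edgeR adjusted p = 0.0419), Myc by -1.07 (edgeR adjusted p = 0.0111), Csrnp1 by -0.92 (edgeR adjusted p = 0.0138) and Klf6 by -0.73 (edgeR adjusted p = 0.0219). Klf4, a Kruppel-like factor of endothelium known to respond to flow, was the 1 higher, at 81.6 ± 22.2 against 17.0 ± 1.40 CPM in wild type (SD, n = 2, log2 difference 1.86, edgeR adjusted p = 4.2e-05). Irf1 (-0.48) and Klf10 (0.17), which are abundant, did not pass (edgeR adjusted p = 0.270 and 0.702).

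Of 28 other primary response genes tested, 11 were lower in endothelium and 3 higher, against 11.1% and 7.19% of all genes tested. Among the lower were the matricellular genes Ccn1, at 1445 ± 77.4 against 3114 ± 450 CPM in wild type (SD, n = 2), Ccn2 and Thbs1, the growth arrest genes Gadd45a and Btg2, the chemokine Cxcl1, the kinase Sik1 and the synaptic gene Arc. Their log2 differences ran from -2.74 for Thbs1 to -1.08 for Btg2, with edgeR adjusted p-values from 3.82e-05 for Gadd45a to 0.0136 for Ccn2. The higher genes were the kinase Plk2 (2.03, edgeR adjusted p = 5.83e-05), the prostaglandin synthase Ptgs2 (1.55, edgeR adjusted p = 0.00146) and Ier5l (2.10, edgeR adjusted p = 0.0463). In this family, too, the direction differed from gene to gene.

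Of 13 feedback inhibitors tested, 4 were lower in endothelium and 2 higher, again beside 11.1% and 7.19% of all genes tested. The lower were Errfi1, an inhibitor of the EGF receptor (-1.53, edgeR adjusted p = 0.000488), and the phosphatases Dusp10 (-2.14, edgeR adjusted p = 7.92e-05), Dusp5 (-2.99, edgeR adjusted p = 0.0180) and Dusp8 (-0.64, edgeR adjusted p = 0.0390). Spry4 (1.67, edgeR adjusted p = 0.000172) and Dusp7 (2.04, edgeR adjusted p = 0.00153) were higher. Dusp6 and Spry1 had estimates of 0.43 and 0.32 and did not pass. Of 22 upstream kinases and factors, Map2k7 (-1.09), Braf (-0.79) and Srf (-0.97), which encodes serum response factor, were lower and Mapk3 (1.49) and Mrtfb (0.94) higher, with edgeR adjusted p-values from 7.92e-05 to 0.0231. Those 3 lower and 2 higher calls among 22 genes are close to the shares over all genes tested, 11.1% and 7.19%, and do not set the list apart. Map2k1 (-0.49) did not pass (edgeR adjusted p = 0.0563).

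In podocytes 0 genes of these lists passed the genotype test by edgeR or by DESeq2. An unadjusted p under 0.05 was reached by 2 of 13 feedback inhibitors and 1 of 28 primary response genes with either tool. It was reached by 0 of 12 transcription factors and 0 of 22 upstream genes, where 730 of 16477 genes reached it by edgeR. Only the feedback inhibitors exceeded that share, on 2 genes, too few to set the list apart. In endothelium, described without a test, all 12 transcription factors and all 28 primary response genes had estimates below 0, with medians of -0.43 and -0.57, as did 11 of 13 feedback inhibitors (median -0.28). The upstream kinases and factors were split, with 12 of 22 below 0 and a median of -0.14. For comparison, 49.7% of all genes tested lay below 0, and 89.2% of those whose mean reached 100 CPM. Klf6 had 797 ± 109 CPM in wild-type and 377 ± 42.2 CPM in knockout endothelium (SD, n = 2), the lowest ratio among the 4 most abundant factors of the list.

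Chaperones of the heat shock protein families, only some of which belong to the other arm of the response to dissociation, formed the last list. Estimates were below 0 in both cell types for all 10 tested genes. Their median was -0.65 in endothelium and -0.32 in podocytes. In podocytes 0 of 10 passed by edgeR or DESeq2 (0 at an unadjusted p under 0.05 by either). All 10 have means of at least 100 CPM, and of the 1919 genes at that level 89.2% lay below 0 in endothelium (median -0.26) and 78.5% in podocytes (median -0.18). Between the cell types Hspa5 and Dnajb1 were lower in endothelium (-1.11 and -0.83, edgeR adjusted p = 0.00339 and 0.0270), 2 of 10 where 11.1% of all genes tested and 482 of those 1919 were, which does not set the list apart. Hspa1a and Hspa1b, the most abundant of the list, were not called (0.46 and 0.38), and reads may be split between these near-identical copies.

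**Figure D4:**
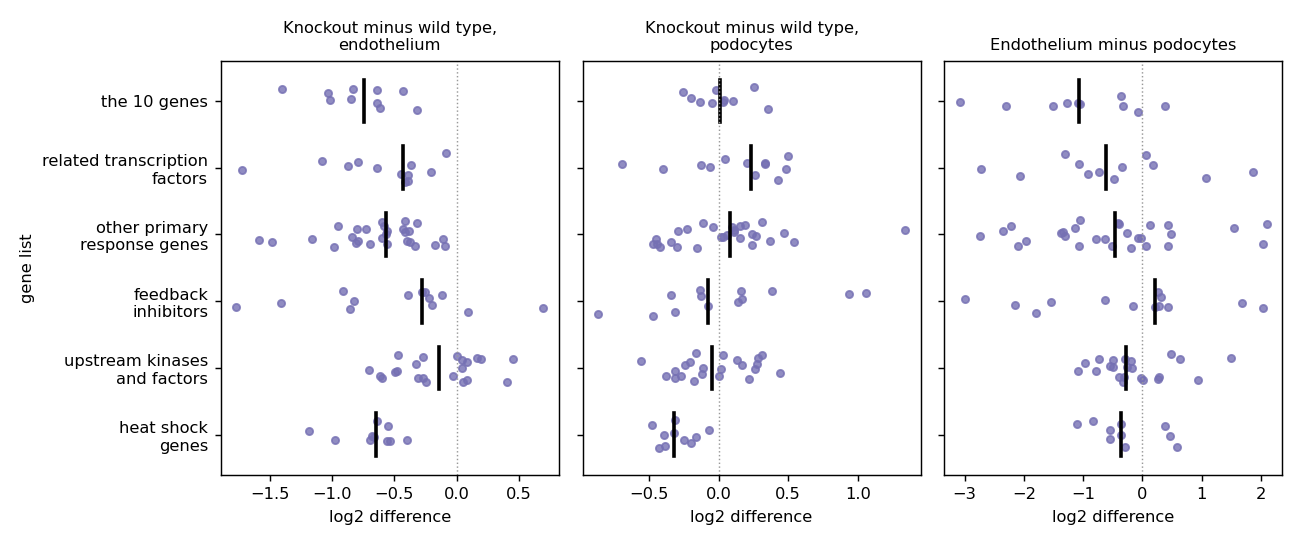
Log2 differences of single genes (points) and list medians (black bars) for the 10 genes and 5 related lists, in knockout minus wild type in endothelium, the same in podocytes, and endothelium minus podocytes. The median of the 10 genes is -0.74, 0.01 and -1.07 in the 3 comparisons, and that of the upstream kinases and factors is -0.14, -0.05 and -0.28.

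The genes whose pattern over the 8 libraries was most like the members' mean were ranked by the mean absolute difference of log2 CPM, each gene being centred on its own mean. The members Fos, Egr1 and Zfp36 lay closest to that mean profile, at 0.09, 0.14 and 0.15 log2 units, and Jund, Dusp1 and Fosb farthest, at 0.90, 0.70 and 0.68. Of 10070 other genes with a mean of at least 5 CPM, whose median distance was 0.54, the nearest was Csrnp1, a nuclear factor on the related list, at 0.12. It was followed by the translation initiation factor Eif1a, the mRNA export factor Nxt2, Ifrd1, the choline phosphotransferase Chpt1, Nmnat3, an enzyme of NAD synthesis, the microtubule linker Hook1 and Tagap1, at distances up to 0.14. The profile itself was highest in replicate 2 of knockout podocytes, at 10.25 log2 CPM on average over the members, and lowest in knockout endothelium, at 8.37 and 8.43. All 8 distances use the same libraries, so shared depth and composition enter them.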

How the data were processed

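Polyadenylated RNA from sorted mouse kidney cells was sequenced after an Illumina TruSeq preparation, per the labels' protocols. The authors deposited raw counts per Entrez gene, 1 column per alignment file, per the file headers. The submitters' processing notes name mm10 and DESeq2. The aligner, counter, annotation and strand setting are not given in the sources used here. Of 22533 gene lines, 5207 (23.11%) had a comma in the description and fewer than 8 counts, and were not analysed here. For that reason 3 columns are recorded as another kind of value than counts, although on complete lines the deposited values were whole counts. The remaining 17326 lines give library totals below the full depth.

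Counts were analysed with edgeR 4.0.16 in R 4.3.3. filterByExpr kept 16477 genes, TMM scaled the libraries, and the model held a mean for each of the 4 groups. Contrasts were tested by quasi-likelihood, with Benjamini-Hochberg adjustment over all genes and a threshold of 0.05. A standard error is the log2 fold change over the square root of F, and intervals are 95%. Log2 CPM used a prior count of 2.

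The members and lists were chosen with earlier results of these data known. Named genes are the members, Emcn, the 4 most abundant tested genes of each related list, up to 6 per direction past the threshold in a tested contrast, and the 8 nearest in pattern. Some genes that the rule names are not reported here. Alternatives were other scalings and filters, DESeq2 1.42.0, the replicate number as a block, only the libraries compared, and each library left out. TMM over genes of at least 100 CPM was added after seeing the data.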

Additional observations from a re-analysis of the deposited data

How the results depend on the processing

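In each of the 8 alternatives to scaling, filter, tool and block, 6 of 10 members were called lower in endothelium, and between 5 and 6 were in the 8 fits without 1 library (2074 to 3278 genes called overall). The share of calls that were higher in endothelium was 39.2%, and 54.9% with libraries scaled by totals and 60.4% with TMM over genes of at least 100 CPM. Jun, which was not called, changed sign to 0.10 with totals, 0.04 with a mean of at least 5 CPM, 0.18 with TMM over genes of at least 100 CPM and ran from -0.14 to 0.01 without 1 library. Library totals moved the median log2 difference of all genes to 0.33, 0.13 and 0.17 in endothelium, podocytes and between cell types, and TMM over genes of at least 100 CPM moved it to 0.31, 0.22 and 0.24.

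In endothelium the members' median of -0.74 became -0.39 with totals and -0.42 with TMM over genes of at least 100 CPM, and ran from -0.94 to -0.50 without 1 library. Jun was 0.01 with totals. Genes called there numbered 0 with totals, 0 with a mean of at least 5 CPM, 10 with DESeq2 and 0 to 1 without 1 library. In podocytes they numbered 0 with totals, 0 with a mean of at least 5 CPM, 0 with only the libraries compared (1 in the fit of all libraries), 12 with DESeq2 and 0 to 1 without 1 library, and where none was called Emcn had lost its call (edgeR adjusted p = 0.0786 with totals, 0.0978 with a mean of at least 5 CPM and 0.194 with only the libraries compared). The causes were not tested.

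Podocyte estimates near 0, none called, changed sign. Fosb was 0.06 with totals, 0.02 with a mean of at least 5 CPM and 0.15 with TMM over genes of at least 100 CPM. Jund was 0.13, 0.04 and 0.19 there, and Fos 0.05 with TMM over genes of at least 100 CPM. Without 1 library the ranges were -0.24 to 0.26 for Atf3, -0.74 to 0.19 for Dusp1, -0.72 to 0.53 for Egr1, -0.59 to 0.21 for Fos, -0.17 to 0.09 for Fosb, -0.22 to 0.77 for Ier2, -0.44 to 0.49 for Junb, -2.28 to 1.69 for Jund and -0.44 to 0.72 for Zfp36. A fit that leaves 1 library in a group assumes that it varies like the other groups.

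With the replicate number as a block, Egr1 in podocytes was -0.03, the members' medians were -0.75, -0.04 and -1.05 in endothelium, podocytes and between cell types, and 3435 genes were called between cell types against 3020, with 6 members in each. Across genes, deviations of same-numbered libraries from their group means correlated at 0.19 in endothelium, 0.16 in podocytes, -0.13 between wild-type cell types and 0.11 between knockout ones, and the labels do not say that a number marks an animal or batch, so the pairing was not used.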
